A study of Mus musculus with 3 samples.

Results

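The genes of the tumour necrosis factor (TNF) superfamily were described in RNA-seq libraries of primary mouse T cells. The cells are labelled T-helper 1 and come from the strain C57BL/6NJ, and the labels point to a protocol for differentiation of CD4 T cells. The set was the 38 named genes of the superfamily, 17 ligands and 21 receptors, and each was found once by its gene identifier among the 50600 annotated genes. All 3 libraries belong to 1 group and are numbered as biological replicates 1, 2 and 3. Their biosamples differ but carry a common donor identifier, and nothing else says how separate the cultures were. No second condition was analysed, and values are therefore compared gene against gene inside a library, or library against library. The age of the animals was labelled unknown, and the headers of the count tables carried a time of 0 hours.

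TNF superfamily ligands are mostly trimeric membrane proteins, some of them also shed, that bind cysteine-rich receptors on a neighbouring cell. Receptors with a death domain can start caspase signalling, and most of the others recruit TRAF adaptors and switch on NF-kappaB. In T cells several of the receptors are costimulatory, while lymphotoxin and CD40 ligand are signals that T cells give to stromal cells and to B cells and macrophages. T-helper 1 cells, the CD4 subset that makes interferon gamma, are known to express several of these ligands after activation.

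The label was checked against markers. All 10 CD4 T cell markers (Trbc2, Trac and Trbc1 highest) and all 5 naive T markers (Tcf7, Il7r and Ccr7 highest) reached 1 TPM (a level scaled to exon length and depth) in all 3 libraries. Of all protein-coding genes 41.6% did so. Of the 6 Th1 markers Il18r1, Stat4 and Il12rb2 did so, the last with exons that overlap an exon of the other strand. Tbx21 and Ifng each had 1, 3 and 0 counts in replicates 1, 2 and 3, and Cxcr3 had 0 counts. As counted, these defining Th1 transcripts at or near 0 go against the label, so the samples are called only by their replicate number below. Replicates 1, 2 and 3 had 3647366, 4305077 and 2510319 counts on genes, of which 2912, 4598 and 1600 fell on the 38 genes. Replicate 3 stood apart in that 76.5% of its counts lay on genes whose exons overlap an exon of the other strand, against 63.1% and 53.8% in replicates 1 and 2. Whether the strand setting of the counting matches the strand of the libraries is not known. If it is the opposite one, the printed counts and TPM hold only the fragments of a gene that were read on the wrong strand, and also fragments of genes on the other strand. All levels, those of the markers above included, carry this limit, so the low counts of Tbx21, Ifng and Cxcr3 do not settle the label. In bulk RNA, fewer cells that express a gene and less RNA per cell cannot be told apart.

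Transcripts of 7 of the 17 ligands and 12 of the 21 receptors reached 1 TPM in all 3 libraries. These 19 of 38 genes compare with 41.6% of the 21764 protein-coding genes. Within each role 1 gene stood far above the others: the ligand gene Ltb and the receptor gene Cd27 made up most of the summed TPM of their role. Ltb took 59.9%, 62.5% and 68.2% of the ligand TPM in replicates 1, 2 and 3, and Cd27 took 57.2%, 57.4% and 65.6% of the receptor TPM. Averaged over libraries, log2(TPM + 0.1) had a median of 1.48 over the 38 members, against −0.97 over all protein-coding genes, and it was 0.25 for ligands and 2.24 for receptors. In single libraries the median member stood at 1.88, 2.29 and −0.075 in replicates 1, 2 and 3, so the set was lowest in replicate 3, as was the median protein-coding gene at −1.66. The levels depend on the denominator: with TPM over nuclear protein-coding genes alone, mean TPM was 544 for Ltb, 178 for Cd40lg and 701 for Cd27, against 230.2, 75.8 and 285 over all genes. At the other end 5 of 38 members had 0 counts in all 3 libraries, against 39.2% of protein-coding genes, and 11 more had 1 to 9 counts in all.

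**Figure D1:**
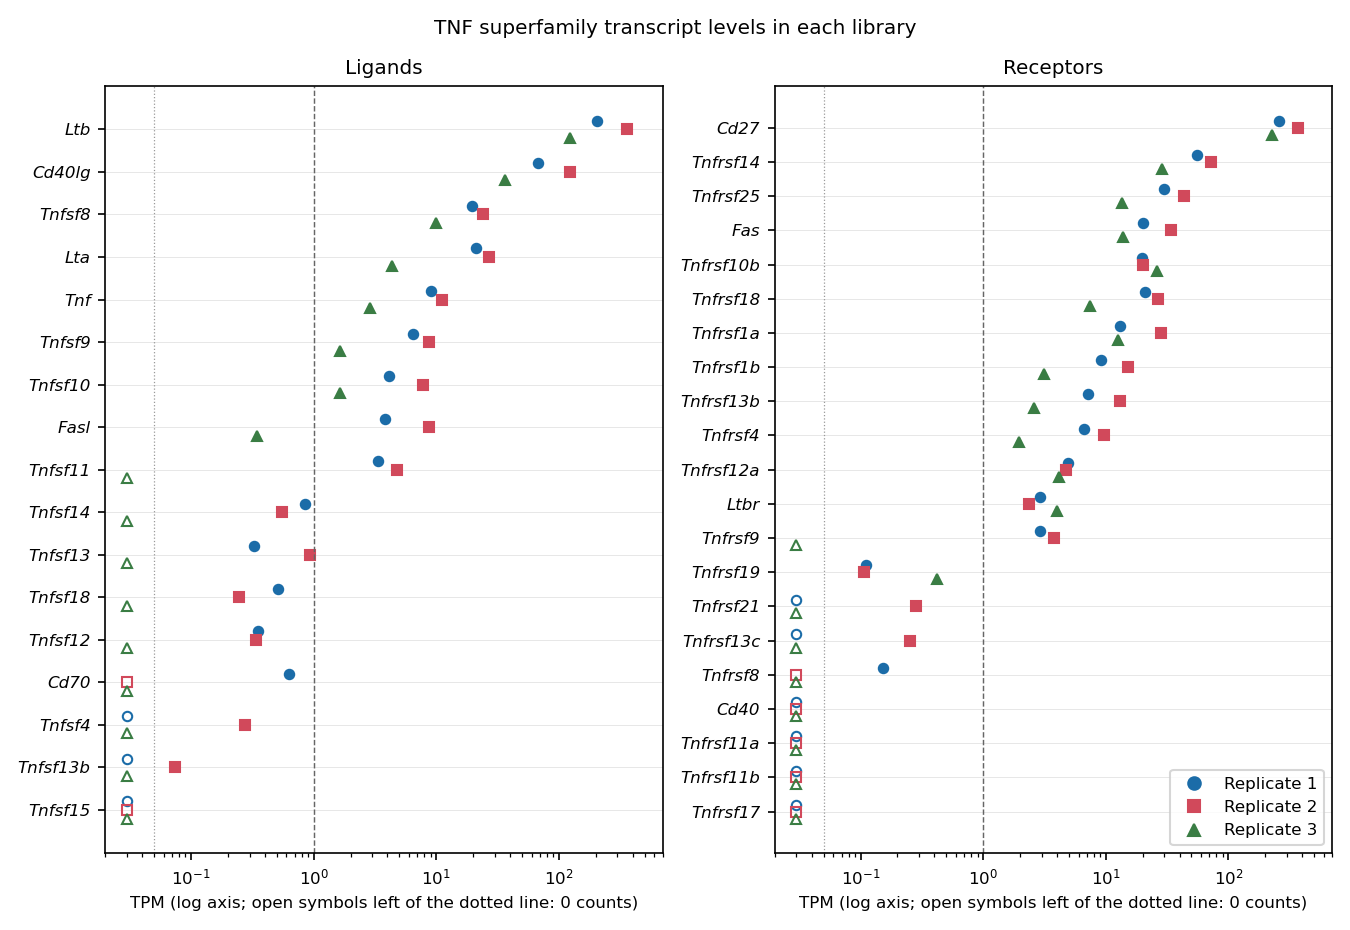
TPM of each ligand (left) and receptor (right) in the 3 libraries, on log axes; each symbol is 1 library, open symbols are libraries with 0 counts, and the dashed line marks 1 TPM. Ltb and Cd27 lie furthest right, and replicate 3 lies left of replicates 1 and 2 for most genes but not for Tnfrsf10b, Ltbr or Tnfrsf19.

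The lymphotoxin and TNF genes lie side by side on chromosome 17 and differed widely in level. Ltb, which encodes the membrane anchor of the lymphotoxin heterotrimer (35194439 to 35196320, plus strand, mm10), held 588, 1075 and 278 counts, or 206, 362 and 123 TPM, in replicates 1, 2 and 3. Lta, which encodes the soluble lymphotoxin alpha and the partner chain of Ltb (35203165 to 35205351, minus strand), held 55, 73 and 9 counts, or 21.1, 26.9 and 4.35 TPM. Tnf, which encodes the cytokine TNF (35199381 to 35202007, minus strand), held 28, 36 and 7 counts, or 9.08, 11.2 and 2.86 TPM. The 3 genes kept this order in all 3 libraries, and the lowest Ltb library was above the highest library of both neighbours. Over the summed counts per base, Ltb was 29.6 times Tnf (95% exact Clopper-Pearson interval 23.3 to 38.004) and 12.9 times Lta (10.9 to 15.5), and Lta was 2.29 times Tnf (1.70 to 3.09). These ratios between neighbours were chosen after the values were seen, and their intervals cover counting error only. Ltb ranked 272 of 21764 protein-coding genes by mean TPM, and Tnf ranked 6379.

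Because these neighbouring genes differed in level, the bases before their starts are shown from RefSeq (GRCm38.p6), with searched motifs in capitals. The windows are chr17:35194257-35194438 for Ltb (plus strand), chr17:35202008-35202257 for Tnf and chr17:35205352-35205601 for Lta (both minus strand), each 5′ to 3′ and ending before the annotated gene of the count table.

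Ltb: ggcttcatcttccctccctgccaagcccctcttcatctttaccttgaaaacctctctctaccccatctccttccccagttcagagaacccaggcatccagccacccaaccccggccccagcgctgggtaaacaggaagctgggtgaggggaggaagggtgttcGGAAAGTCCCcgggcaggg

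Tnf: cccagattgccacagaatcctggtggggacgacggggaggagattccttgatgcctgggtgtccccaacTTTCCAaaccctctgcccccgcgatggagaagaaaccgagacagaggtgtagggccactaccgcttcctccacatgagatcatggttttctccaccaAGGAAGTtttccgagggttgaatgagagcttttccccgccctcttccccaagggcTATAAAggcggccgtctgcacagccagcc

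Lta: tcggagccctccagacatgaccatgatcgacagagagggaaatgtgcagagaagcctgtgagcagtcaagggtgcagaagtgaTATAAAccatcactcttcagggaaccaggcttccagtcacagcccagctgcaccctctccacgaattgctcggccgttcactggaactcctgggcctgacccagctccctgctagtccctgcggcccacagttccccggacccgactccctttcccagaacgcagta

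Motifs were searched on both strands. The kappaB motif is the run marked in the Ltb window, where any base was allowed at the sixth and the seventh place. The others were the ETS motif AGGAAGT, the NFAT motif TGGAAA, the RUNX motif TGTGGT and the TATA motif TATAAA. None of the marked matches overlaps another. The Ltb window held 1 kappaB match, first base at −87 from the RefSeq start, a motif found in 1.41% of the 32851 promoter windows of 250 bases. The Tnf window held an NFAT match at −181, an ETS match at −84 and a TATA match at −29, which 18.6%, 7.69% and 12.4% of windows hold. The Lta window held a TATA match at −167. RefSeq windows were found for 30 of the 38 members, 34 windows in all, of which 3 (of Ltb, Tnfrsf9 and Tnfrsf25) held the kappaB letters. A match is only a run of letters, and nothing about binding was measured.

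Cd40lg, which encodes CD40 ligand, the signal that T cells give to B cells and macrophages (X chromosome, 57212143 to 57224042), was the next ligand after Ltb. It held 160, 301 and 68 counts, or 68.0, 122.9 and 36.4 TPM, in replicates 1, 2 and 3. Each library's value lay below that library's Ltb and above all other ligands. Tnfsf8, which encodes the ligand of CD30 (chromosome 4, 63831308 to 63861347), followed with 139, 178 and 57 counts, or 19.4, 23.9 and 10.02 TPM. Its mean of 17.8 ± 7.07 TPM did not differ from that of Lta (17.5 ± 11.7 TPM, SD, n = 3 each) beyond the spread between libraries.

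Ligands of the death receptors and of 4-1BB were present at low level. Tnfsf10, which encodes the apoptosis ligand TRAIL, held 41, 81 and 13 counts, or 4.14, 7.85 and 1.65 TPM, in replicates 1, 2 and 3. Fasl, which encodes the killing ligand of FAS, held 14, 33 and 1 counts, or 3.84, 8.70 and 0.345 TPM, so that it fell under 1 TPM in replicate 3. Tnfsf9, which encodes the ligand of the costimulatory receptor 4-1BB, held 15, 21 and 3 counts, or 6.48, 8.71 and 1.63 TPM. Of its exonic bases 476 lie inside the span of Gm11110 on the other strand, which held 49, 70 and 54 counts. Tnfsf11, which encodes the osteoclast factor RANKL, held 14, 21 and 0 counts, where 3 counts in replicate 3 would be 0.898 TPM. All 4 ligand genes had their highest raw count in replicate 2, the largest library, and their lowest in replicate 3, the smallest. These counts are not scaled to depth, so their order is also that of the library totals.

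The remaining 8 ligand genes were at the limit of detection. Tnfsf14, which encodes LIGHT, had 3, 2 and 0 counts in replicates 1, 2 and 3, and Tnfsf18, which encodes the ligand of GITR, had 2, 1 and 0. Cd70, the ligand gene of CD27, had 1 count in all, as had Tnfsf4, the ligand gene of OX40, and Tnfsf13b, which encodes the B cell survival factor BAFF. Tnfsf15, which encodes the DR3 ligand TL1A, had 0 counts, and its floor of 3 counts stood at 0.476, 0.457 and 0.5998 TPM in replicates 1, 2 and 3. Tnfsf12 and Tnfsf13, which encode TWEAK and APRIL, had 2 and 4 counts in all. Their exons share 731 and 983 bases with the joint transcript gene Tnfsfm13 on the same strand, and a fragment on both genes is not counted by default, so these 2 levels are uncertain.

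Among receptors, Cd27 was the highest member of the superfamily. Its product is a costimulatory receptor that naive T cells already carry (chromosome 6, 125232622 to 125237010, minus strand) and held 1131, 1687 and 786 counts, or 258, 369.9 and 226 TPM, in replicates 1, 2 and 3. It ranked 211 of 21764 protein-coding genes by mean TPM and exceeded Ltb in each library. The summed ratio per base was 1.21 (95% interval 1.14 to 1.28), with 1.25, 1.02 and 1.84 in replicates 1, 2 and 3. This pair was chosen after the values were seen, and its interval covers counting error only. All 2328 exonic bases of Cd27 lie inside the span of Vamp1 on the other strand, in no annotated exon of it, and Vamp1 held 427, 706 and 300 counts. The part of Vamp1 in the Cd27 counts was not tested. Exons of Cd27 also share 129 bases with Mir8113 on the same strand, which had 0 counts. A fragment on both genes is not counted by default, so Cd27 may be undercounted there.

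A group of costimulatory receptors followed. Tnfrsf14, which encodes HVEM, the receptor of LIGHT and lymphotoxin alpha, held 122, 163 and 50 counts, or 55.8, 71.7 and 28.8 TPM, in replicates 1, 2 and 3. Tnfrsf25, which encodes the TL1A receptor DR3, held 127, 195 and 46 counts, or 29.6, 43.7 and 13.5 TPM. Both ranked in the same order in all 3 libraries, Tnfrsf14 above Tnfrsf25. Tnfrsf25 ends 212 bases from Espn on the other strand, which held 2338, 2040 and 2001 counts. Tnfrsf18, which encodes GITR, held 60, 79 and 17 counts, or 20.9, 26.5 and 7.46 TPM, and shares 414 exonic bases with Gm16008 on the other strand. Gm16008 held 1123, 1114 and 1132 counts, many times those of Tnfrsf18 in each library, and their part in the Tnfrsf18 counts was not tested. Tnfrsf4, which encodes OX40, lies 9.55 kb from Tnfrsf18 on chromosome 4 and held 17, 26 and 4 counts, or 6.62, 9.72 and 1.96 TPM. Tnfrsf9, which encodes 4-1BB, held 15, 20 and 0 counts. It lies 125 bases from Park7 on the other strand, which held 183, 285 and 61 counts. Of its exonic bases 2570 lie inside the span of Camta1, also on the other strand, with 19, 20 and 13 counts. The part of these neighbours in the Tnfrsf9 counts was not tested.

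GITR and OX40 are known to be high on regulatory T cells, so markers of these cells were read beside them. Of the 4 regulatory T markers 2 reached 1 TPM in all 3 libraries, and their summed TPM was 140.1, 132.8 and 204 in replicates 1, 2 and 3, nearly all of it from Foxp3, whose exons overlap another gene's on the other strand. Ctla4 had 16, 34 and 3 counts, Il2ra 25, 54 and 12 and Ikzf2 12, 21 and 4. In counts and TPM, these 3 were lowest in replicate 3, like Tnfrsf4 and Tnfrsf18, and Foxp3 was highest there. Replicate 3 was also the smallest library. On counts scaled to depth (CPM with TMM library sizes), 50.5% of the genes that passed the filter on low counts were lowest in it. That share is not one of raw counts or TPM, and Ctla4, Ikzf2 and Tnfrsf4 did not pass the filter. Among the genes that passed, the ones with exon overlap had a median difference of 0.71 (log2 CPM, replicate 3 minus the mean of the others). The part of regulatory T cells in the receptor levels was not tested.

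Fas, Tnfrsf1a and Tnfrsf10b, whose products carry a death domain like DR3, were at intermediate level. Fas (chromosome 19, 34290659 to 34327770) held 68, 121 and 37 counts, or 20.1, 34.3 and 13.7 TPM, in replicates 1, 2 and 3. Tnfrsf1a, which encodes the death-domain TNF receptor TNFR1 (chromosome 6, 125349362 to 125362484), held 64, 144 and 49 counts, or 13.1, 28.4 and 12.7 TPM. It lies 176 bases from Plekhg6 on the other strand, which held 75, 37 and 41 counts. Tnfrsf10b, which encodes the TRAIL receptor (chromosome 14, 69767472 to 69784403), held 118, 125 and 123 counts, or 19.8, 20.1 and 26.0 TPM. In counts and in TPM, Fas and Tnfrsf1a were lowest in replicate 3 and Tnfrsf10b was lowest in replicate 1. On CPM with TMM library sizes none of the 3 was lowest in replicate 3, with 17.4, 23.1 and 19.2 CPM for Fas in replicates 1, 2 and 3. Tnfrsf21 and Tnfrsf19, which encode the related receptors DR6 and TROY, had 2 and 5 counts in all.

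Tnfrsf1b, which encodes the second TNF receptor TNFR2, without a death domain, held 66, 114 and 18 counts, or 9.18, 15.2 and 3.15 TPM. Tnfrsf1a was above it in each library, with a summed ratio per base of 1.91 (95% exact interval 1.58 to 2.31) that ranged between 1.43 and 4.01 over the libraries. This pair was also chosen after the values were seen, and its interval covers counting error only. Ltbr, the lymphotoxin beta receptor gene of stromal and myeloid cells, held 13, 11 and 14 counts. Tnfrsf12a, which encodes the TWEAK receptor, held 9, 9 and 6 counts, or 4.96, 4.77 and 4.17 TPM. In TPM this was the smallest spread relative to its mean among the members with at least 10 counts. On CPM with TMM library sizes Tnfrsf12a was less even, at 2.31, 1.71 and 3.11 in replicates 1, 2 and 3. It lies 220 bases from Hcfc1r1 on the other strand, with 207, 220 and 214 counts.

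Receptors of B cells, antigen-presenting cells and bone were near or at 0, with Tnfrsf13b as an exception. Cd40, Tnfrsf17 (BCMA), Tnfrsf11a (RANK) and Tnfrsf11b (the decoy receptor osteoprotegerin) had 0 counts in all 3 libraries. The floor of 3 counts for Cd40 was 0.468, 0.4496 and 0.589 TPM in replicates 1, 2 and 3. Tnfrsf13c, which encodes the BAFF receptor of mature B cells, and Tnfrsf8, which encodes CD30, had 1 count each. Tnfrsf13b, which encodes TACI (chromosome 11, 61126755 to 61149372), held 38, 72 and 11 counts, or 7.12, 12.96 and 2.60 TPM. Of 8 B cell markers 2 reached 1 TPM in all 3 libraries, and their summed TPM was 271, 401 and 123, nearly all from Ighm and Cd79a. Cd79b followed with 1 count in all, and Ms4a1, Pax5 and Igkc had 0 counts. The summed TPM of the 6 dendritic markers lay between 3.06 and 6.64, led by Cd74, Zbtb46 and H2-Ab1. Of 8 myeloid markers 2 reached 1 TPM in all 3 libraries, with summed TPM of 88.8, 73.6 and 111 in replicates 1, 2 and 3. They were Csf1r, with 744, 638 and 699 counts and exon overlap with the other strand, and Cd68, with 17, 14 and 27 counts. Fcgr1 followed with 6 counts in all, and Adgre1, Cd14 and Spi1 had 0. The NK markers summed to at most 2.25 TPM, led by Eomes with 30 counts in all and exon overlap with the other strand. Ncr1 had 1 count in all, and Klrb1c and Klre1 had 0. The stromal markers summed to at most 2.07 TPM (Epcam, Cdh5 and Pdgfrb first), while of the 2 CD8 T genes Cd8b1 had 97 counts and Cd8a had 1. The part of these cell types in the members' levels was not tested.

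The next question was which side of each ligand and receptor pair was the more abundant transcript in the same cells. In 14 of 26 pairs the receptor was higher in all 3 libraries, in 5 the ligand, and 7 had no direction. A direction required a ratio per base on the same side of 1 in each library, with at least 3 counts of the higher gene, and none was given in a library where both genes had 3 counts or fewer. For 13 of the 14 and all 5 the interval of the summed ratio excluded 1 or the ratio was a bound. With 3 libraries an exact sign-flip test cannot give a p below 0.25, so no p is given, and pairs that share a gene are not independent.

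The ligand was higher in 5 pairs. Ltb over Ltbr gave a summed ratio per base of 79.3 (95% exact Clopper-Pearson interval 57.6 to 112), with 70.2, 151.7 and 30.8 in replicates 1, 2 and 3. Cd40lg was at least 160.2-fold higher than Cd40, for which the floor of 3 counts per library was used. Tnfsf8 over Tnfrsf8 gave 339.8 (60.6 to 13457) on 374 against 1 counts. Tnfsf10 was at least 8.03-fold higher than the decoy receptor gene Tnfrsf11b. Without replicate 2 these values were 49.8 for Ltb over Ltbr, at least 104 for Cd40lg over Cd40, 178 for Tnfsf8 over Tnfrsf8 and at least 4.82 for Tnfsf10 over Tnfrsf11b. Without replicate 1, which held the 1 count of Tnfrsf8, Tnfsf8 over Tnfrsf8 was at least 35.6. Lta over Tnfrsf1b gave 1.91 (1.52 to 2.39), and without the length correction this ratio was 0.692, on the other side of 1. As background, lymphotoxin beta and CD40 ligand act on stromal and antigen-presenting cells, whose receptors Ltbr and Cd40 encode.

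The receptor was higher in 14 pairs, and these held several costimulatory pairs. Cd70 over Cd27 gave a ratio of 0.000767 (95% interval 1.94e-05 to 0.00428) on 1 against 3604 counts. Tnfsf15 over Tnfrsf25 was at most 0.0166, Tnfsf18 over Tnfrsf18 gave 0.0142 (0.00289 to 0.0422) and Tnfsf4 over Tnfrsf4 gave 0.0158 (0.000391 to 0.0922). LIGHT's gene Tnfsf14 gave 0.00932 (0.00301 to 0.0220) over Tnfrsf14 and 0.167 (0.0512 to 0.424) over Ltbr. For the B cell axis, Tnfsf13 over Tnfrsf13b gave 0.0573 (0.0154 to 0.150) and Tnfsf13b over Tnfrsf13b gave 0.00341 (8.57e-05 to 0.0194). Tnfsf12 over Tnfrsf12a gave 0.0530 (0.00607 to 0.213). Several of these ratios rest on the few ligand counts of 1 library, although each stayed below 1. Without replicate 1, Cd70 over Cd27 was at most 0.00671, Tnfsf4 over Tnfrsf4 was 0.0247, Tnfsf14 over Tnfrsf14 was 0.00586, Tnfsf14 over Ltbr was 0.101 and Tnfsf18 over Tnfrsf18 was 0.00768. Without replicate 2, Cd70 over Cd27 was 0.00144, Tnfsf4 over Tnfrsf4 was at most 0.212, Tnfsf13 over Tnfrsf13b was 0.0354 and Tnfsf13b over Tnfrsf13b was at most 0.0506. Without replicate 3, Tnfsf14 over Ltbr was 0.264.

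The death ligands were closer to their receptors. Fasl over Fas gave 0.197 (95% interval 0.141 to 0.271) and Tnfsf10 over Tnfrsf10b gave 0.222 (0.181 to 0.271), with 0.0251 and 0.0636 in replicate 3. Without replicate 2, Tnfsf10 over Tnfrsf10b was 0.135. Tnf over Tnfrsf1a gave 0.437 (0.331 to 0.570), and Lta over Tnfrsf14 gave 0.343 (0.279 to 0.420). Tnf over Tnfrsf1b gave 0.835 with an interval of 0.628 to 1.10, so counting error did not separate the 2 genes. Lta over Tnfrsf1a gave 0.999 (0.806 to 1.23) and changed side, with 1.61, 0.9497 and 0.344 in replicates 1, 2 and 3. Tnfsf9 over Tnfrsf9 gave 2.47 (1.52 to 4.01) but was given no direction in replicate 3, where they had 3 and 0 counts and both were thus at or under the floor. Without that exception it would be the sixth pair with the ligand higher. No ratio was given for 3 pairs of genes at or near 0, and Tnfsf11, with 0 counts in replicate 3, had no direction against its 2 receptors.

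**Figure D2:**
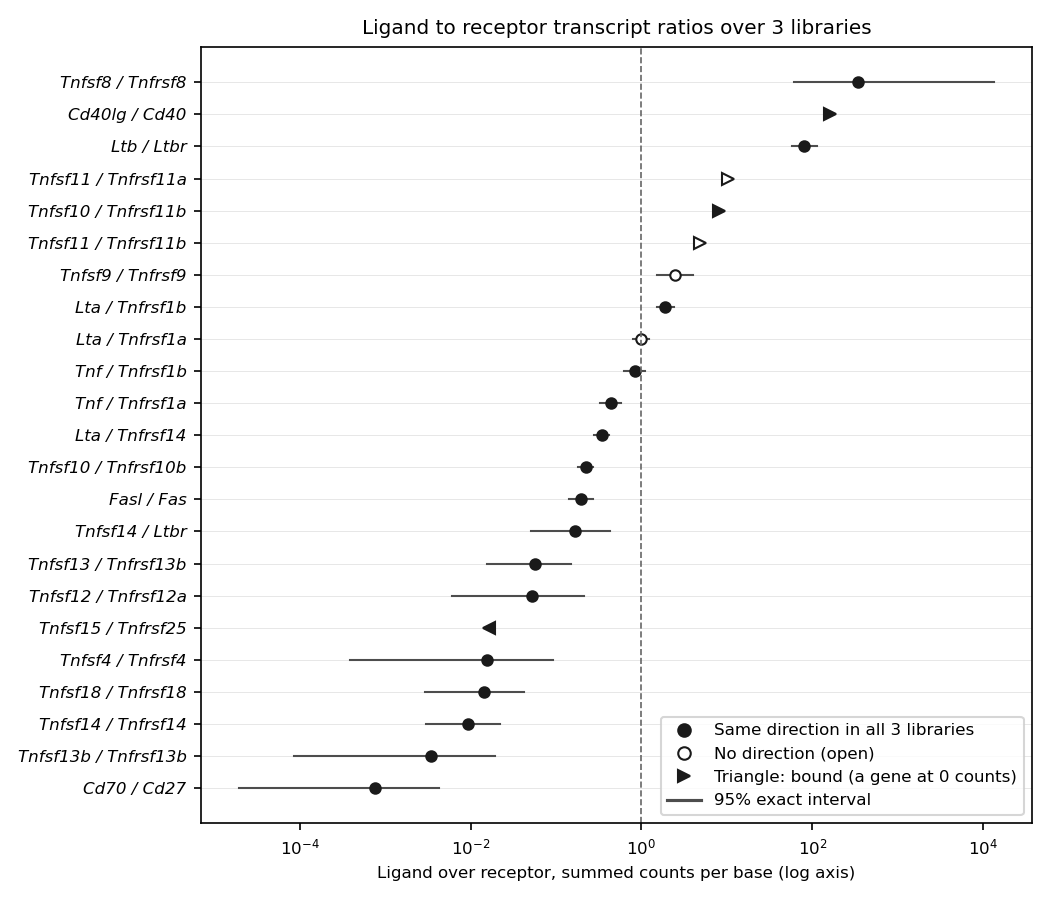
Ratio of ligand over receptor counts per base, summed over 3 libraries, for the 23 pairs with a ratio (log axis); lines are 95% exact Clopper-Pearson intervals, triangles are bounds where 1 gene had 0 counts, and open symbols had no common direction in the 3 libraries. Ltb, Cd40lg and Tnfsf8 lie far right of 1, and Cd70, Tnfsf13b and Tnfsf14 far left.

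Part of the superfamily lies in clusters, and neighbours were read together. With gaps of at most 500 kb, a distance chosen after the values were seen, 20 members fell into 8 clusters and 18 lay outside them. On chromosome 6 Cd27, Ltbr and Tnfrsf1a are spaced 69.6 and 35.5 kb apart, and Cd27 was 95.9 times Ltbr (95% interval 69.7 to 136) and 15.6 times Tnfrsf1a (13.7 to 17.8) in summed counts per base. These ratios were also chosen after the values were seen, and their intervals cover counting error only. Neighbours in several clusters thus stood far apart in level. On chromosome 4 Tnfsf8 lies 86.2 kb from Tnfsf15, with 374 and 0 counts, and Tnfrsf1b 20.3 kb from Tnfrsf8, with 198 and 1 counts. On chromosome 1 Fasl, with 48 counts, lies in the same cluster as Tnfsf4 and Tnfsf18, with 1 and 3. On chromosome 17 Tnfsf9, with 39 counts, lies beside Cd70 and Tnfsf14, with 1 and 5.

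Variation between the libraries was tested against counting error for the 15 of 38 members that passed the filter on low counts, 6 ligands and 9 receptors. A Poisson chi-square test called 10 of the 15, against 65.9% of the 10949 genes kept, with a threshold of 0.05 on the Benjamini-Hochberg adjusted p. The test compares these libraries and not conditions. On counts scaled to depth (CPM with TMM library sizes), 11 of the 15 were lowest in replicate 3, against 50.5% of kept genes, and 8 were highest in replicate 2, against 49.5%. The tally depended on the scaling. Replicate 3 minus the mean of the others was below 0 in 12 of 15 members with TMM, 11 with DESeq2 size factors, 14 with the deposited totals and 8 with sizes from genes lacking an opposite-strand neighbour. Of all kept genes 56.5%, 53.2%, 70.5% and 38.1% were below 0 under those scalings. With the spread typical of all kept genes (a negative binomial variance with edgeR's common dispersion), 0 of 15 were called, 1 had an unadjusted p below 0.05, and 0.968% of kept genes were called. The Poisson calls thus show spread beyond counting error, as most genes had in these libraries.

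Replicate 3 minus the mean of replicates 1 and 2 (log2 CPM) was largest in Tnfrsf10b, which stood at 30.3, 23.8 and 63.8 CPM in replicates 1, 2 and 3, a difference of 1.23 (adjusted p = 4.04e-15, Poisson chi-square test). Its call was lost without replicate 3 (adjusted p = 0.141, Poisson chi-square test). The median difference was −0.16 over all kept genes, 0.71 over genes with exon overlap, −0.30 over genes with an opposite-strand gene within 5 kb and −0.45 over genes with none. Tnfrsf10b lies 587 bases from Rhobtb2 on the other strand, with 157, 281 and 92 counts. Relative to the median of all kept genes the difference of Tnfrsf10b was 1.39.

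Cd27 stood at 290.2, 321 and 408 CPM, a difference of 0.42 (adjusted p = 4.62e-12, Poisson chi-square test), and Tnfrsf1a at 16.4, 27.4 and 25.4 CPM, a difference of 0.25 (adjusted p = 0.00442, Poisson chi-square test). Both differences turned negative on the deposited library totals, at −0.15 for Cd27 and −0.31 for Tnfrsf1a, a scaling that moved the median of all kept genes to −0.71. Relative to the median of all kept genes with TMM, the differences were 0.58 for Cd27 and 0.41 for Tnfrsf1a. The call of Tnfrsf1a was lost without replicate 1 (adjusted p = 0.837, Poisson chi-square test). Fas, Tnfsf8, Tnfrsf14, Tnfrsf18 and Tnf did not pass the test.

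Lta differed most in the other direction, with 14.1, 13.9 and 4.67 CPM and a difference of −1.49 (adjusted p = 0.00694, Poisson chi-square test), a call lost without replicate 3 (adjusted p = 0.962, Poisson chi-square test). Tnfrsf1b, Tnfrsf13b, Tnfsf10 and Tnfrsf25 were called with differences of −1.0004, −0.96, −0.87 and −0.53. Without replicate 3 none of these 4 was called (adjusted p = 0.215, 0.184, 0.110 and 0.399, Poisson chi-square test). The calls of Tnfrsf13b, Tnfsf10 and Tnfrsf25 were also lost without replicate 2 (adjusted p = 0.185, 0.243 and 0.122, Poisson chi-square test). Ltb stood at 150.9, 204.8 and 144.2 CPM (adjusted p = 6.14e-11, Poisson chi-square test) and Cd40lg at 41.1, 57.4 and 35.3 CPM (adjusted p = 0.000114, Poisson chi-square test), so both were set apart by a higher replicate 2, and without it neither was called (adjusted p = 0.644 and 0.403, Poisson chi-square test). With library sizes from genes lacking an opposite-strand neighbour, only Ltb, Tnfrsf1a, Cd27 and Tnfrsf10b of the 15 were called, and Lta missed with an adjusted p of 0.0666 (Poisson chi-square test). Tnfrsf13b and Tnfrsf25 also missed with DESeq2 size factors (adjusted p = 0.0527 and 0.142, Poisson chi-square test).

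**Figure D3:**
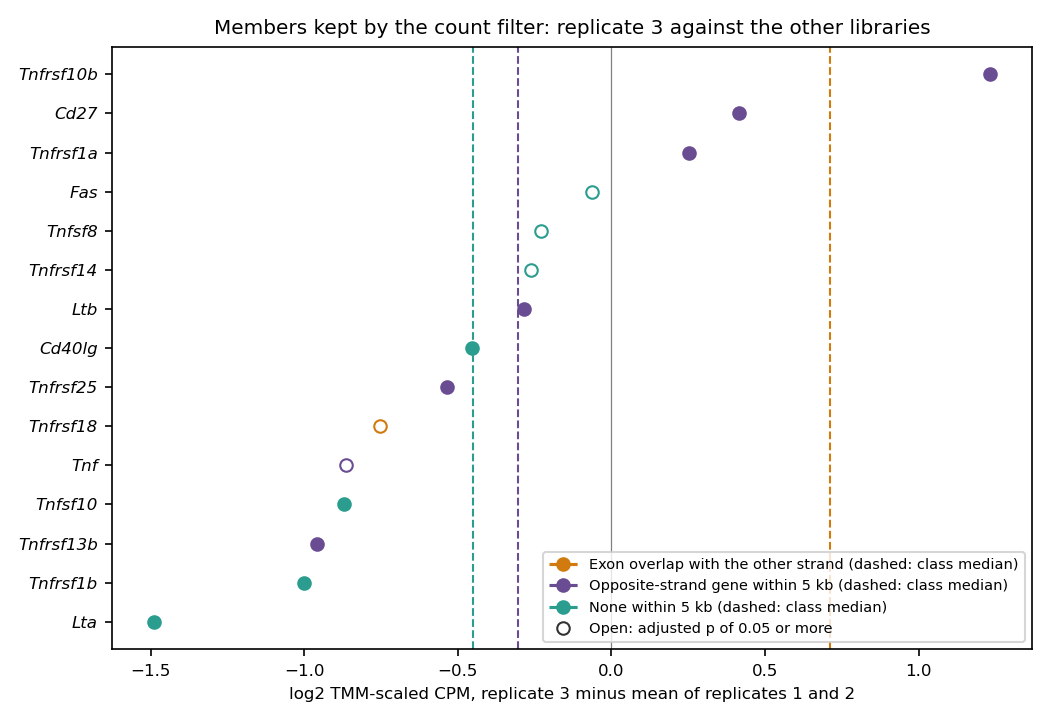
Difference of replicate 3 from the mean of replicates 1 and 2 in log2 TMM-scaled CPM for the 15 members kept by the count filter; colours give the class of the gene by its opposite-strand neighbours, dashed lines the median of each class over all kept genes, and open points genes that did not pass the Poisson chi-square test. Tnfrsf10b lies at 1.23 and Lta at −1.49; Cd27 and Tnfrsf1a are above 0 here but below 0 on the deposited library totals.

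Genes of the pathway downstream of the receptors were mostly present, where 41.6% of all protein-coding genes reached 1 TPM in all 3 libraries. Of 10 TRAF and receptor adaptors 9 reached 1 TPM in all 3 libraries, led by Traf1, an adaptor of several costimulatory receptors, at 19.4 ± 10.8 TPM (SD, n = 3), the kinase gene Ripk1 at 17.9 ± 6.35 TPM and Traf5 at 15.2 ± 7.64 TPM, with exon overlap for Ripk1 and Traf5. The exception was Fadd, the death-domain adaptor gene, with 26, 44 and 3 counts in replicates 1, 2 and 3. All 12 genes of NF-kappaB control at the receptors reached 1 TPM, led by the linear-ubiquitin protease gene Otulin at 41.4 ± 24.7, Rbck1 at 37.7 ± 17.1 and Tab2 at 30.8 ± 16.9 TPM. All 6 shedding and processing genes did so too, led by Adam17, the TNF-releasing protease gene, at 22.7 ± 1.21 TPM with exon overlap, Adam10 at 20.98 ± 10.4 and Sppl2a at 8.16 ± 4.83 TPM.

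Of 6 death signalling genes 4 reached 1 TPM in all 3 libraries, against 41.6% of all protein-coding genes. Casp8, the initiator caspase gene of death receptors, stood at 92.8 ± 47.9 TPM, Bid at 44.2 ± 8.80 TPM with exon overlap and Ripk3 at 18.0 ± 9.14 TPM, whereas the necroptosis gene Mlkl had 1 count in all. Of 8 further superfamily genes Tnfrsf26 (13.7 ± 11.2 TPM), Tnfrsf22 (12.6 ± 2.56), Relt (12.4 ± 8.20) and Tnfrsf23 reached 1 TPM in all 3 libraries. Tnfrsf22, Tnfrsf23 and Tnfrsf26 are similar neighbouring genes whose reads may be shared, so their levels are uncertain. Edar, Eda2r and Ngfr, receptors of ectoderm and nerve, had 0 counts.

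**Figure D4:**
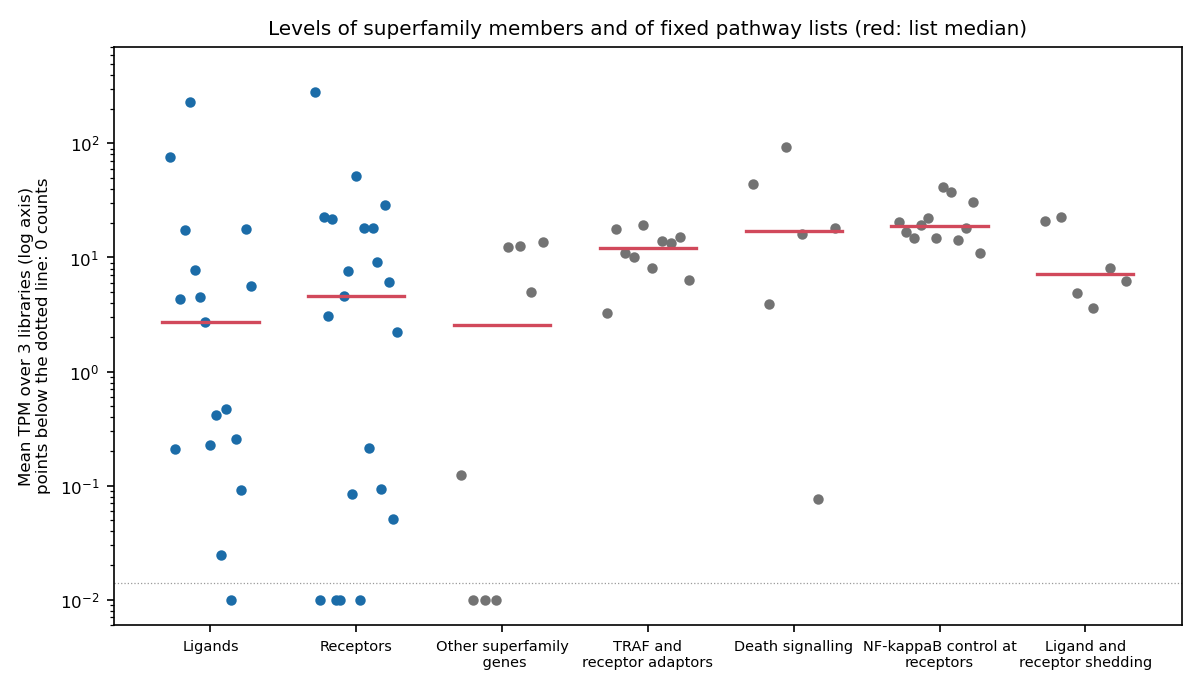
Mean TPM over 3 libraries (log axis) of each ligand, receptor and gene of 5 pathway lists; each point is 1 gene, red lines are list medians and points under the dotted line had 0 counts. Members range from 0 counts to 285 TPM, and all 12 genes of NF-kappaB control lie between 10.9 and 41.4 TPM.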

How the data were processed

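The samples were grouped by the labelled cell type and numbered by the labelled replicate, and p-values measure only the spread between these libraries, which may be technical. The labels call the assay total RNA-seq, while the protocol they link is named for poly(A)+ RNA. The deposited tables hold raw counts of fragments per gene made with featureCounts 1.4.6-p4 (options for pairs mapped at both ends and strand setting 1, exons joined per gene, GENCODE M13), per the file headers. The build is mm10, per the labels, and no aligner version is given in the sources used here. No option to count multi-mapping fragments was set, so near-identical genes may be undercounted.

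Symbols and biotypes were matched by gene identifier in GENCODE M21 for 50376 of 50600 genes. TPM were computed here from counts and deposited exon lengths. A gene with 0 counts was given a floor of 3 counts, and PCR duplicates were not told apart, so floors and intervals cover counting error only. Genes were classed by exon overlap with, or a distance of 5 kb from, an opposite-strand gene (bedtools 2.31.1). Ligand to receptor ratios used Clopper-Pearson 95% intervals (scipy 1.17.1). Variation between libraries was tested with a chi-square statistic on Poisson counts, 2 degrees of freedom, with TMM sizes and filterByExpr in edgeR 4.0.16 and Benjamini-Hochberg adjustment. DESeq2 1.42.0 size factors were an alternative. For differences of log2 CPM, 0.5 was added. The test was checked on simulated Poisson counts drawn with the same library sizes, so this check does not cover spread beyond counting error. Every member is accounted for, with values per library where it had at least 10 counts in all, and of each other list the 3 highest genes are named, or both where it has 2. Members, pairs and lists were chosen with earlier results of these data known. A single group allows no test of a condition.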

Additional observations from a re-analysis of the deposited data

How the results depend on the processing

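The number of members at 1 TPM or more in all 3 libraries stayed within 1.5 times 19 under every alternative run. With at least 10 counts in every library as the criterion it was 14, over nuclear protein-coding genes as the TPM denominator 20, and with 1 replicate left out 19 to 22. The median member level of 1.48 was 2.75 with TPM over nuclear protein-coding genes and 0.93 to 2.17 with 1 replicate left out. The number of members varying beyond counting error depended most on the choices. It was 10 of 15 with TMM, 4 with library sizes from genes lacking an opposite-strand neighbour within 5 kb, and 0 with the negative binomial variance (1 of 15 at an unadjusted p under 0.05), which called 106 of all 10949 genes where the Poisson test called 7219. It was 8 with DESeq2 size factors, 15 with the deposited library totals, 11 of 33 with no filter on low counts, and 4 to 9 with 1 replicate left out (9 without replicate 1, 5 without replicate 2 and 4 without replicate 3, where 3805 of all genes were called). No paired analysis was possible because there was 1 group. Replicate 3 minus the others changed sign on the deposited totals for Cd27 (−0.15) and Tnfrsf1a (−0.31). With sizes from genes lacking such a neighbour it changed sign for Ltb (0.097) and for 3 genes that the test did not call, Tnfsf8 (0.15), Tnfrsf14 (0.12) and Fas (0.31, and 0.021 with DESeq2 size factors). Pairs with the ligand higher numbered 5 to 8 with 1 replicate left out, the 8 without replicate 3, and pairs with the receptor higher 14 to 15. With a minimum of 10 counts they numbered 4 and 12, as Lta over Tnfrsf1b, Tnfsf4 over Tnfrsf4 and Tnfsf12 over Tnfrsf12a lost their direction. In counts not scaled to length they numbered 4 and 16, and among pairs without exon overlap 5 and 12. Lta over Tnfrsf1b was 0.692 in counts not scaled to length. Depth limits the low genes, since 16 of the 38 members had fewer than 10 counts in all.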

Other observations

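Some genes kept nearly the same count in all 3 libraries although replicate 3 was the smallest library. These were picked after their values were seen. Tnfrsf10b had 118, 125 and 123 counts in replicates 1, 2 and 3, Ltbr 13, 11 and 14, Tnfrsf22 92, 89 and 98, and Bid 243, 296 and 285. Tnfrsf23, the neighbour of Tnfrsf22, had 27, 32 and 42 counts. Bid and Tnfrsf23 have exons that overlap an exon of the other strand, the class with a median difference of 0.71 (log2 CPM, replicate 3 minus the mean of the others). Tnfrsf10b and Tnfrsf22 lie within 5 kb of an opposite-strand gene without exon overlap, and Ltbr has no such gene within 5 kb, classes with medians of −0.30 and −0.45.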
